A study of Pinus pinaster with 8 samples.

Results

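Phenylalanine supply was followed through 5 cDNA clones on a maritime pine (Pinus pinaster) microarray of 2910 spots, 4 of them for enzymes of the shikimate pathway and 1 for glutamine synthetase 1b (GS1b). The clones were 3-dehydroquinate dehydratase/shikimate 5-dehydrogenase (DHQ/SDH, GEM-055-G05), shikimate kinase (SK, GEM-049-H03), 5-enolpyruvylshikimate 3-phosphate synthase (EPSPS, GEM-065-D01), chorismate synthase (CS, GEM-042-B04) and GS1b (GEM-087-B02). They were chosen by name among clones that the study listed as more abundant in compression xylem, so that their ratio between the xylem types is a description, and no call made on it is support. Each clone matched exactly 1 spot.

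The groups compared were compression (Cx) and opposite (Ox) developing secondary xylem, scraped from the underside and the upper side of the same stems. The stems belonged to 4 field-grown adult trees from Sierra Bermeja, aged 25, 28, 28 and 35 years, and had been bent by 45° for 2 months, so that both groups come from bent trees and no upright tree is among them. Amplified RNA of a Cx and an Ox sample was labelled with Cy3 and Cy5 and hybridized to the same slide. The 8 columns of ratios fell into 4 near-identical pairs (r between 0.969 and 0.984 within a pair, 0.843 to 0.875 between pairs of the same dye orientation, and 0.635 to 0.791 between orientations). Each slide held 2 copies of the array, and the pairs were averaged as copies of 1 hybridization, which leaves n = 4. Hybridizations 1 and 2 had Cx in Cy3, and hybridizations 3 and 4 had Ox in Cy3. According to the methods the 4 hybridizations used samples of different trees and included dye swaps. Which tree went onto which slide is not settled by the column labels, since the columns of a pair carry different tree numbers. By these labels, hybridizations 1 and 3 carry the trees of 25 and 35 years, and hybridizations 2 and 4 those of 28 years.

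The shikimate pathway joins phosphoenolpyruvate from glycolysis with erythrose 4-phosphate from the pentose phosphate pathway and leads, through shikimate and chorismate, to the aromatic amino acids. In lignifying xylem phenylalanine is the entry to monolignol synthesis, and phenylalanine ammonia-lyase (PAL) releases its amino group as ammonium. Cytosolic glutamine synthetase, of which GS1b is the form associated with vascular tissue in pines, fixes ammonium into glutamine. Compression wood, the reaction wood of conifers, is rich in lignin.

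The probes were PCR products of cDNA clones from trees of another provenance, and a stretch of each is shown to say what was on the slide. The printed stretches come from the single-pass sequence read from the 5′ end of each clone, of which 399 bases (396 for GS1b) were read here, and positions count from the first base of that read. Capitals mark the codons of the glycine-rich nucleotide-binding motif of the shikimate dehydrogenase part in DHQ/SDH (bases 30 to 53), the stop codon in SK (bases 219 to 221), the codons of the second EPSP synthase signature in EPSPS (bases 239 to 295), the base at which the CS clone differs from the assembled contig (C139T, contig base first), and the codons of the ATP-binding signature in GS1b (bases 223 to 273).
DHQ/SDH: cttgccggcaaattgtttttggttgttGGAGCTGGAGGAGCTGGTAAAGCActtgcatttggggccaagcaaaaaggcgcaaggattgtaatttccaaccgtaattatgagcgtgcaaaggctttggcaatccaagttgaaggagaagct
SK: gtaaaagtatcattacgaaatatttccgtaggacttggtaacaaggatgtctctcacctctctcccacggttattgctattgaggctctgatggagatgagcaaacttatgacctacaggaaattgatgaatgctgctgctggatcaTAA
EPSPS: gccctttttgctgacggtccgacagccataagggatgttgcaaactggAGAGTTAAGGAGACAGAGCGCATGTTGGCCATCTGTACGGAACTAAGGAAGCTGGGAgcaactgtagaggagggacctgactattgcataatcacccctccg
CS: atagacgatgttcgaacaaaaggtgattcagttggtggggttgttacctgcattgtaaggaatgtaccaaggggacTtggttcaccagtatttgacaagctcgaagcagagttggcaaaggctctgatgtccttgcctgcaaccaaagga
GS1b: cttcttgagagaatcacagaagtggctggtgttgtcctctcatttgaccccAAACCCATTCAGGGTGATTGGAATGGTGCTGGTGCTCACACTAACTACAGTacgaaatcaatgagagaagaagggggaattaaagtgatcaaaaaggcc
The SK read reached its stop codon after 216 coding bases, so that this probe covers only the end of the coding region, whereas no stop codon was met in the reads of the other 4 clones. The DHQ/SDH clone differed from its contig at 1 of 272 aligned bases (A24G, contig base first), just ahead of the nucleotide-binding motif. The CS clone differed at 1 of 399. The study assembled the DHQ/SDH and CS clones into contigs, and its list also held a CS sequence outside the contig. Which spots of this array carried further clones of the same enzymes was not examined, so the values below are those of single probes. Glutamine synthetases form a family of similar sequences, and how far a GS1b probe of this kind also binds transcripts of relatives was not measured, which makes its ratio uncertain in that respect. The study also reported northern blots for DHQ/SDH, CS and GS1b, and quantitative RT-PCR for GS1b in other trees, each with more transcript in Cx. Those measurements were not used here.

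All values are log2(Cx/Ox), positive where the transcript was more abundant in Cx. This is the study's tabulated log2(Ox/Cx) with the sign turned. A ratio of this kind says nothing about the level of a transcript and, in scraped tissue, fewer cells of a type and less RNA per cell cannot be told apart.

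All 5 clones had a higher signal in Cx on each of the 4 hybridizations. The shikimate clones averaged between 1.76-fold and 2.28-fold, and GS1b averaged 1.60-fold. Of all 2910 spots, 22.7% were higher in Cx on all 4 hybridizations. A ratio of at least 1.5-fold on every hybridization was reached by 2 of the 5, DHQ/SDH and CS, and by 5.74% of all spots.

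DHQ/SDH, the bifunctional enzyme that makes shikimate from dehydroquinate, had a log2(Cx/Ox) of 1.33 and 1.16 on hybridizations 1 and 2 and of 1.32 and 0.91 on hybridizations 3 and 4. The mean was 1.18 ± 0.20 (SD, n = 4), or 2.27-fold. It was the steadiest of the 5 clones, between 1.88-fold and 2.51-fold on every hybridization. Its SD sat in the middle of the array, with a larger SD in 49.8% of spots, and by mean it ranked 84th of 2910 from the highest log2(Cx/Ox).

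SK, which phosphorylates shikimate with ATP, gave 1.23 and 0.70 with Cx in Cy3 and 0.81 and 0.51 with Ox in Cy3. Its mean was 0.81 ± 0.31 (SD, n = 4), or 1.76-fold. The value of hybridization 1 stood above the other 3, which lay between 0.51 and 0.81. The spot ranked 111th on hybridization 1 and 328th on hybridization 4.

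EPSPS, the target of the herbicide glyphosate, transfers the enolpyruvyl group of phosphoenolpyruvate to shikimate 3-phosphate. Its log2(Cx/Ox) was 1.17 and 0.54 on hybridizations 1 and 2 and 0.94 and 0.72 on hybridizations 3 and 4, with a mean of 0.84 ± 0.27 (SD, n = 4), or 1.80-fold. It was the only clone of the 5 whose lowest value fell on hybridization 2, and its values in the 2 dye orientations overlapped.

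CS, which forms chorismate, the branch point to the aromatic amino acids, had the widest span. Its values were 1.64 and 1.34 with Cx in Cy3 and 1.18 and 0.60 with Ox in Cy3, that is, 3.11-fold on hybridization 1 and 1.51-fold on hybridization 4. The mean of 1.19 ± 0.44 (SD, n = 4), or 2.28-fold, nearly equalled that of DHQ/SDH, but the SD was more than double, and 5.77% of all spots had a larger one. Both values with Cx in Cy3 lay above both with Ox in Cy3.

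GS1b gave 1.14 and 0.81 with Cx in Cy3 and 0.44 and 0.34 with Ox in Cy3. It had the smallest mean of the 5 clones, 0.68 ± 0.37 (SD, n = 4), or 1.60-fold. As for CS, the values of the 2 orientations did not overlap. Such a split, with Cx in Cy3 the higher, was present in these 2 of the 5 clones and in 18.8% of the 266 spots called higher in Cx by limma's robust model at 1.5-fold and an adjusted p of 0.05. GS1b ranked 131st and 170th of 2910 spots on hybridizations 1 and 2 and 447th and 577th on hybridizations 3 and 4, where it was below 1.5-fold (1.35-fold and 1.26-fold).

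**Figure D1:**
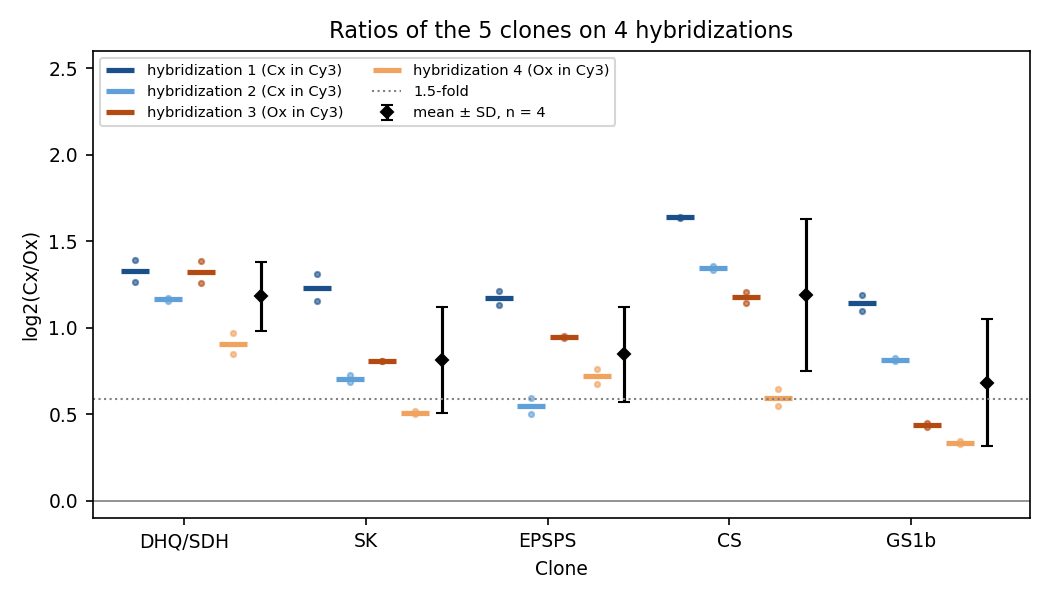
Log2(Cx/Ox) of the 5 clones. Small points are the 2 copies on a slide, bars their average for each of the 4 hybridizations, diamonds the mean ± SD over n = 4 hybridizations, and the dotted line 1.5-fold. The clones are all above 0 on every hybridization, hybridization 1 is the highest for all 5, and hybridization 4 is the lowest for 4 of 5.

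With the robust linear model of limma, 4 of the 5 clones (DHQ/SDH, SK, EPSPS and CS) were called higher in Cx (1.5-fold or more, with a Benjamini-Hochberg adjusted p up to 0.05), where 9.14% of all spots did. Nothing is read from this count, because the clones were picked from the same contrast. By least squares 5 of 5 passed (9.76% of all spots). The count was 2 (DHQ/SDH and EPSPS) without hybridization 2, where 7.8% of spots passed, and 3 (DHQ/SDH, EPSPS and CS) without hybridization 3, where 7.29% did. Without hybridization 4 it was 5, and 9.66% of spots passed. At an adjusted p of at most 0.001 none of the 5 passed with the robust model, and 0.55% of spots did. That limit depended on the fit: 1 clone (DHQ/SDH) passed by least squares (3.68% of spots), 4 with the 8 columns taken as independent (8.73%), and 5 with the copies of a slide (8.25%) or the tree number (9.86%) as a random block.

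**Figure D2:**
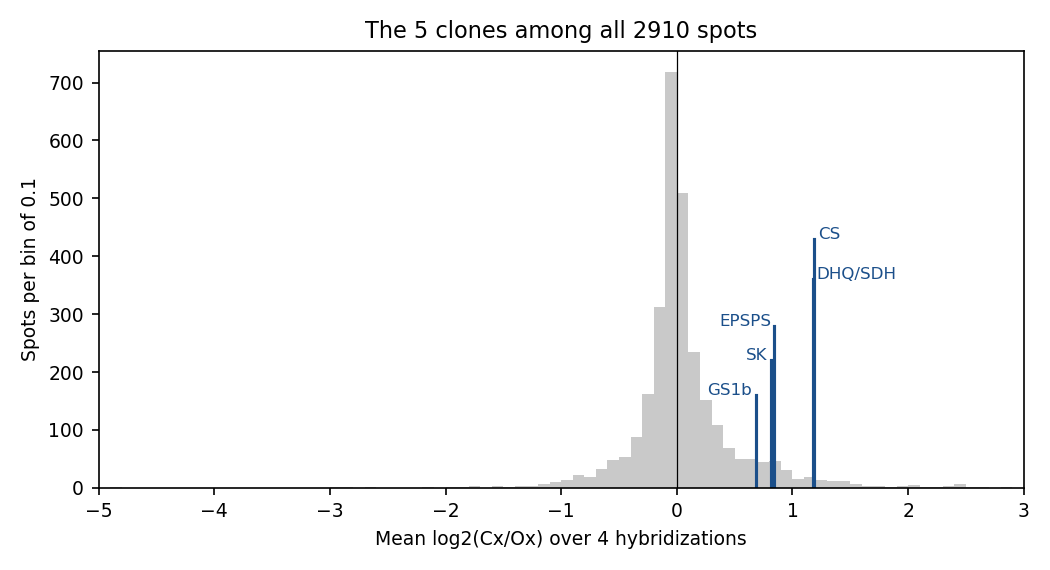
Mean log2(Cx/Ox) over 4 hybridizations for all 2910 spots (grey bars, spots per bin of 0.1) with the 5 clones as blue lines, whose height has no meaning. The median of all spots is -0.01, and the 5 clones lie between 0.68 and 1.19, with 2.78% of spots above CS and 8.14% above GS1b.

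Set against each other on the same slides, the clones fell into an upper pair, CS and DHQ/SDH, and a lower set. DHQ/SDH exceeded SK on 4 of 4 hybridizations, by 0.37 ± 0.19 (SD of the difference in log2(Cx/Ox), n = 4). It also exceeded EPSPS on 4 of 4, by 0.34 ± 0.21, and GS1b on 4 of 4, by 0.50 ± 0.30. CS exceeded SK by 0.38 ± 0.23 and GS1b by 0.51 ± 0.20, again on 4 of 4 hybridizations, but EPSPS on only 3 of 4. Within the upper pair, CS minus DHQ/SDH was 0.01 ± 0.29, with each ahead on 2 hybridizations. CS was the higher with Cx in Cy3, and DHQ/SDH with Ox in Cy3. Among the lower clones EPSPS minus SK was 0.03 ± 0.17 and SK minus GS1b 0.13 ± 0.20, both within the spread between hybridizations. By mean, the enzymes before and after SK and EPSPS in the pathway, DHQ/SDH and CS, were thus the higher pair. These differences compare probes chosen on their ratios and were not tested.

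The differences between hybridizations are another contrast than the one that chose the clones, but the study's list also carried a limit on p, which depends on the spread between these hybridizations, so that the tests of them are not fully independent of the choice. Against the spread between the 2 copies on a slide, which for these clones were never more than 0.16 apart, all 5 clones differed among the 4 hybridizations (limma's moderated F test, adjusted p between 2.31e-06 for CS and 0.000921 for DHQ/SDH). The same test called 88.9% of all spots, so that such differences were the rule on these slides. The p-values set slides against printing copies, and differences between trees, slides and labelling cannot be told apart in them.

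The slides of a dye orientation differed in the same direction for every clone. Hybridization 1 gave a higher log2(Cx/Ox) than hybridization 2 by 0.63 ± 0.05 for EPSPS (moderated SE, limma adjusted p = 4.89e-05) and by 0.53 ± 0.05 for SK (adjusted p = 0.000163). The differences were smaller for GS1b (0.33 ± 0.04, limma adjusted p = 0.000673) and CS (0.29 ± 0.05, adjusted p = 0.0017), and that of DHQ/SDH, 0.16 ± 0.07, did not pass (adjusted p = 0.0806). In all, 4 of 5 clones were called higher on hybridization 1, where 23.7% of all spots were, and 54.5% of the 266 spots called higher in Cx.

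Hybridization 3 exceeded hybridization 4 most for CS, by 0.58 ± 0.05 (moderated SE, limma adjusted p = 4.81e-05). DHQ/SDH followed with 0.42 ± 0.07 (limma adjusted p = 0.00125), SK with 0.30 ± 0.05 (adjusted p = 0.00265) and EPSPS with 0.23 ± 0.05 (adjusted p = 0.00767). GS1b differed by 0.10 ± 0.04 and did not pass (adjusted p = 0.092). Again 4 of 5 clones were called, where 24.9% of all spots and 47.7% of the 266 spots called higher in Cx were. The clones thus ranked differently in the 2 comparisons, with EPSPS and SK moving most between hybridizations 1 and 2, and CS and DHQ/SDH between hybridizations 3 and 4.

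The highest value fell on hybridization 1 for 5 of 5 clones and the lowest on hybridization 4 for 4 of 5. Among the 266 spots called higher in Cx, hybridization 1 was the highest in 46.2% and hybridization 4 the lowest in 36.8%, and both held in 20.7%. The medians of these spots were 1.08, 0.87, 0.97 and 0.87 on hybridizations 1 to 4, and those of the 5 clones 1.23, 0.81, 0.94 and 0.60.

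**Figure D3:**
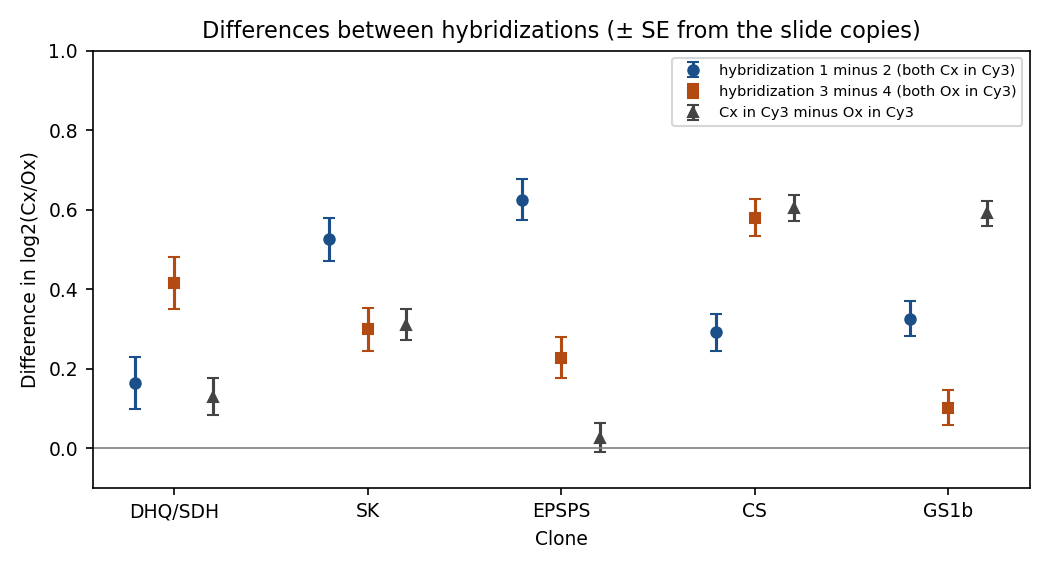
Differences in log2(Cx/Ox) between hybridizations for the 5 clones, with bars of ± 1 moderated SE taken from the 2 copies on a slide. Circles are hybridization 1 minus 2, squares hybridization 3 minus 4 and triangles the mean with Cx in Cy3 minus the mean with Ox in Cy3. All differences are above 0, from 0.03 for EPSPS between orientations to 0.63 for EPSPS between hybridizations 1 and 2.

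Between dye orientations the means of EPSPS and DHQ/SDH lay close together, and those of CS and GS1b lay farther apart. EPSPS averaged 0.86 with Cx in Cy3 and 0.83 with Ox in Cy3, and DHQ/SDH averaged 1.24 with Cx in Cy3 and 1.12 with Ox in Cy3. CS averaged 1.49, or 2.81-fold, with Cx in Cy3 and 0.89, or 1.85-fold, with Ox in Cy3. GS1b averaged 0.98, or 1.97-fold, with Cx in Cy3 and 0.39, or 1.31-fold, with Ox in Cy3. SK lay between, at 0.97 with Cx in Cy3 and 0.66 with Ox in Cy3.

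Tested on the 4 hybridizations with a dye term (limma, least squares), the difference of Cx in Cy3 minus Ox in Cy3 was 0.59 ± 0.14 for GS1b (SE, unadjusted p = 0.0105, adjusted p = 0.0717) and 0.61 ± 0.23 for CS (adjusted p = 0.136). The adjusted p was 0.35 for SK, 0.618 for DHQ/SDH and 0.946 for EPSPS. None of the 5 clones and 0% of all spots passed an adjusted p of 0.05, while 1 of the 5 clones, GS1b, and 37.5% of all spots had an unadjusted p of at most 0.05. Judged against the spread between copies instead, 4 of 5 clones (all but EPSPS) and 78.5% of all spots differed between orientations. With 2 slides an orientation, the dye and the slides cannot be told apart in the values of a single clone.

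Around the shikimate pathway, 10 further clones of the study's list of differential clones were described whatever their values: 9 were higher in Cx on all 4 hybridizations, and 1, phosphoenolpyruvate carboxykinase, was lower on all 4. Since the study put them on that list for their ratio on these samples, the count is no independent evidence. With the robust model 8 passed the limits in the direction of Cx (9.14% of all spots) and 1 in the direction of Ox (3.33% of all spots).

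In the pentose phosphate pathway, the source of erythrose 4-phosphate, 6-phosphogluconate dehydrogenase (GEM-054-C09), which yields NADPH, had log2(Cx/Ox) values of 1.80 and 1.12 on hybridizations 1 and 2 and of 1.33 and 1.88 on hybridizations 3 and 4. Its mean of 1.53 ± 0.37 (SD, n = 4), or 2.90-fold, was above that of every shikimate clone, and unlike any of the 5 clones it peaked on hybridization 4. Ribulose-5-phosphate 3-epimerase (GEM-029-C10) averaged 0.83 ± 0.23, close to EPSPS and SK. Transaldolase (GEM-068-G10), which handles erythrose 4-phosphate itself, averaged 0.73 ± 0.40 and spanned 0.24 on hybridization 4 to 1.13 on hybridization 1.

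Phosphoenolpyruvate carboxykinase (GEM-045-A07), which makes phosphoenolpyruvate from oxaloacetate, was the clone on the other side. Its log2(Cx/Ox) was -0.59 and -0.73 with Cx in Cy3 and -0.98 and -0.37 with Ox in Cy3, a mean of -0.67 ± 0.25 (SD, n = 4). Of all spots, 18.1% were lower in Cx on all 4 hybridizations. No value of it overlapped with those of the 5 clones.

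At the exit towards lignin the 2 PAL clones were both higher in Cx on every hybridization. GEM-086-F08 gave 2.51 and 2.05 with Cx in Cy3 and 2.13 and 1.73 with Ox in Cy3, with a mean of 2.11 ± 0.32 (SD, n = 4), or 4.31-fold. GEM-025-E12 averaged 1.27 ± 0.14, or 2.42-fold, close to DHQ/SDH and CS. Every value of GEM-086-F08 was above every value of the 5 clones, and whether the PAL clones represent different genes was not examined.

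Among enzymes of nitrogen metabolism around glutamine synthetase, the NADP-isocitrate dehydrogenases, which provide 2-oxoglutarate for glutamate synthesis, averaged 0.77 ± 0.10 (GEM-056-H03) and 0.93 ± 0.24 (GEM-029-B07; SD, n = 4 each). The aspartate aminotransferases, which exchange amino groups between glutamate and oxaloacetate, averaged 0.80 ± 0.16 (GEM-002-F07, mitochondrial precursor) and 0.68 ± 0.20 (GEM-050-D02). These 4 means lay near the 0.68 ± 0.37 of GS1b, with smaller SDs. Their orientation differences (Cx in Cy3 minus Ox in Cy3) ran between -0.13 and 0.14, against 0.59 for GS1b.

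The 4 laccase clones taken as markers of lignifying xylem were higher in Cx on all 4 hybridizations, with means between 0.92 and 2.42. Of all spots, 22.7% were higher in Cx on all 4. The laccase clones also come from the study's list of differential clones, so their direction is no independent evidence. As ratios they show neither the level of laccase transcripts nor whether both samples held lignifying cells. Their part in the ratios of the 5 clones was not tested.

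**Figure D4:**
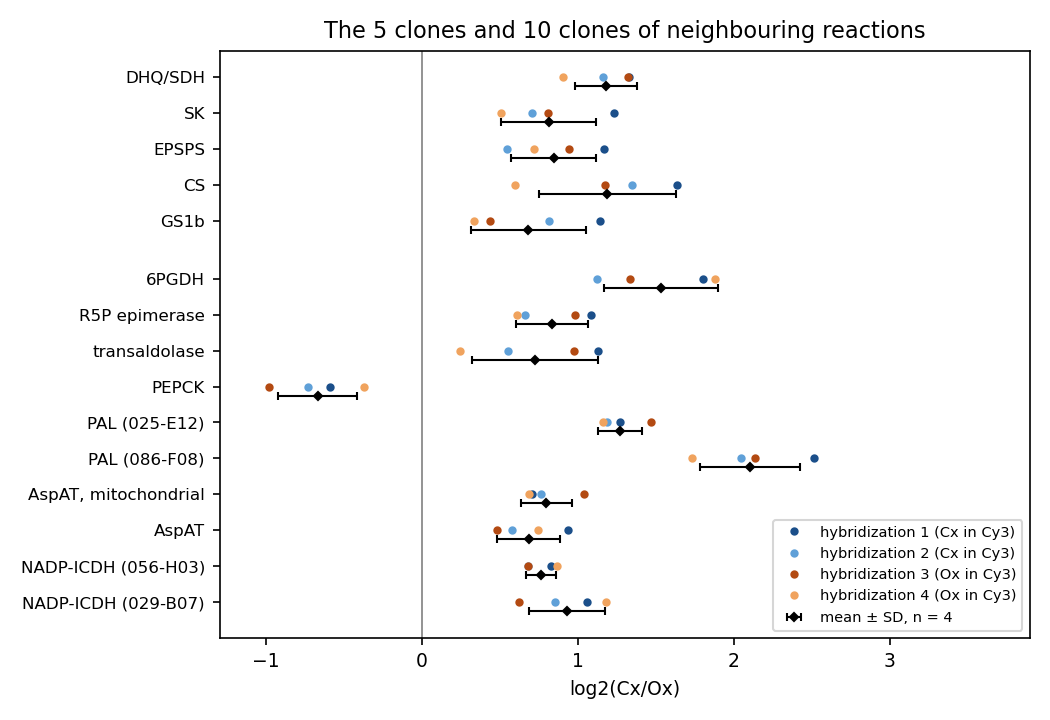
Log2(Cx/Ox) of the 5 clones (top) and of 10 clones of neighbouring reactions (bottom). Coloured points are the 4 hybridizations and diamonds the mean ± SD (n = 4). Phosphoenolpyruvate carboxykinase alone lies below 0, and PAL clone GEM-086-F08 has the highest mean, 2.11.

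The clones whose 4 values lay nearest to each of the 5 were sought among 193 other clones with a description, all from the study's list of differential clones, by the root mean square difference in log2(Cx/Ox) over the 4 hybridizations. GS1b had the closest partner, a ubiquitin clone (GEM-050-D01) at a distance of 0.05, with 1.20 and 0.75 on hybridizations 1 and 2 and 0.45 and 0.39 on hybridizations 3 and 4. A ceramidase clone (GEM-032-B03) followed at 0.09. SK was nearest to 4-coumarate:CoA ligase (GEM-006-C11), an enzyme of monolignol synthesis, at 0.07, and then to ribosomal protein L25 (GEM-045-D01) at 0.12.

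EPSPS was nearest to ribulose-5-phosphate 3-epimerase (GEM-029-C10, 0.09) and to a serine/arginine-rich protein kinase (GEM-077-A07, 0.10). DHQ/SDH was nearest to calreticulin (GEM-068-C01, 0.13), a calcium-binding chaperone of the endoplasmic reticulum, and to PAL clone GEM-025-E12 (0.15). CS had the most distant partners, a nucleosome assembly protein (GEM-087-B08) and UDP-glucose dehydrogenase (GEM-022-C10), a producer of nucleotide sugars for cell wall polysaccharides, both at 0.19. The 5 clones themselves were left out of the candidates. The smallest distance within the set was 0.15, between EPSPS and SK. With 4 slides to compare over, nearness in this measure is a description.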

How the data were processed

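RNA from compression and opposite developing xylem of 4 trees had been hybridized to a 2-colour cDNA microarray with swapped dyes. The authors deposited log2 ratios of 2910 spots in 8 columns, which they had made from GenePix intensities by normexp background correction and print-tip loess normalization, without scaling between arrays (per the labels, R 2.7.1 and limma 2.14.5 were used). Intensities were not used, the authors' spot filters could therefore not be recomputed, and precision is limited by the number of arrays. Shares are given over all 2910 spots, which are more than the study reported keeping after its filters. Among named spots only, 11% were called higher in Cx at an adjusted p of 0.05, against 9.14% of all spots. No value was missing and 0 columns were left unused.

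The methods word the ratio as Cy3 over Cy5, but the signs of the deposited values run as Cy5 over Cy3. This was settled by setting the mean of the turned columns against the study's published clone table, which also served as the key that named 2068 spots, while 842 stayed without a name. The table's values were used for nothing else, and sequences were read from the same source. A spot took a clone's name where the mean equalled the tabulated value to its printed digits and no other clone did so. No genome or annotation was used.

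Columns were turned to log2(Cx/Ox) and the 2 copies of a slide were averaged. Values are plain means ± SD over 4 hybridizations. Calls used limma's robust linear model with an intercept only (at most 200 iterations) or, for the dye and the slides, least squares with moderated tests. Benjamini-Hochberg adjustment covered all 2910 spots. The methods describe hybridizations with samples of different trees, but the column labels do not settle which, and the spread over hybridizations holds differences between trees and slides together.

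The members and lists were chosen with earlier results of these data known. Named are the 5 clones, the 10 clones of neighbouring reactions, 4 laccase clones and, for each of the 5, the 2 nearest described clones. Alternatives were other fits, centring and scaling of columns, single dye orientations, single copies, leaving out a hybridization and pairing by tree number. R 4.3.3, limma 3.58.1, statmod 1.5.0, Python 3.11.15, numpy 2.4.6, pandas 2.3.3, matplotlib 3.10.9 and Biopython 1.88 were used.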

Additional observations from a re-analysis of the deposited data

Results flagged for a closer look

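Of 27 clones named in the text, calreticulin (GEM-068-C01), the clone nearest to DHQ/SDH, had a hybridization far from the others. Its log2(Cx/Ox) was 0.81 on hybridization 4, against 1.32, 1.39 and 1.40 on hybridizations 1 to 3, and the gap took up 0.861 of its whole range, above Dixon's critical value for 4 values. Chance flags about 1 in 20 such groups. None of the 5 clones was past that value, with shares of the range between 0.36 for EPSPS and 0.608 for DHQ/SDH.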

How the results depend on the processing

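The mean log2(Cx/Ox) of the 5 clones stayed positive and within 1 SD of its value under the robust estimate, centring, centring with scaling and either copy alone. It also did so with either dye orientation alone and with each hybridization left out, but those outcomes were fixed in advance. All 4 values of each clone were positive, and a mean over part of 4 values cannot move by 1 SD. Centring and single copies also had little room to move the means, since column medians were 0.01 to 0.03 and copies at most 0.16 apart. The robust estimate differed from the mean only for SK, by -0.007. With a hybridization left out the means ran over 1.13 to 1.27 for DHQ/SDH, 0.67 to 0.91 for SK, 0.74 to 0.94 for EPSPS, 1.04 to 1.39 for CS and 0.53 to 0.80 for GS1b, lowest without hybridization 1 for all 5. The count of 4 clones past the limits (9.14% of all spots) was 0 at an adjusted p of at most 0.001 (0.55%). It was 5 by least squares (9.76%) and 2 to 5 with a hybridization left out (7.29% to 9.66%). Whether the tree numbers pair the columns was not settled. Deviations of same-numbered columns from the mean of their orientation correlated between -0.03 and 0.00. Since the columns of a slide are near-identical, these correlations cannot tell the tree numbers of a slide apart. The replicate block (averages over the same number, or the number as a random block) gave 5 clones, where 9.86% of all spots passed. Such a block counts the copies of a slide as separate replicates. The count of 0 clones with a dye effect became 4 against the spread between copies and 3 (SK, CS and GS1b) with the replicate block of differences within a tree number, where 78.5% and 52.7% of all spots were called. With a hybridization left out, the dye difference ran from -0.29 to 0.34 for EPSPS and from -0.0786 to 0.34 for DHQ/SDH, neither called. It was negative for EPSPS without hybridization 1 (-0.286) or 4 (-0.0876) and for DHQ/SDH without hybridization 4 (-0.0786). Of the differences within an orientation, that of DHQ/SDH between hybridizations 1 and 2 passed after scaling (0.45) and with named spots only (adjusted p = 0.0469), and that of GS1b between hybridizations 3 and 4 passed after scaling (0.13). The background correction and the filters on dim spots were not varied, as intensities were not used here.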
